A study of Mus musculus with 16 samples.

Results

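The levels of 5 mature microRNAs (miRNAs) linked to the choroid plexus and to the serotonin receptor gene Htr2c were compared in the prefrontal cortex of PS19 tauopathy mice and wild-type (WT) mice. They were mmu-miR-204-5p, mmu-miR-211-5p, mmu-miR-448-3p, mmu-miR-1298-5p and mmu-miR-1264-3p, chosen by name, and these 5 rows were taken from a table of 18488 non-coding RNA features. The libraries came from 8 PS19 mice, labelled PS19+/-, and 8 WT mice. PS19 mice are heterozygous for a human tau transgene (MAPT) with the P301S mutation, driven by the mouse prion protein promoter (Prnp) on a mixed B6;C3 background, and WT mice were the littermates without it. All mice were in the tenth month of life and were perfused with phosphate-buffered saline before dissection, and no treatment was given. Per the methods of the study, cerebellum, olfactory bulb and subcortical tissue were removed and the sexes were balanced, while the labels do not give the sex of a mouse. Libraries are called by genotype and by the number in their titles.

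The choroid plexus is the epithelium in the brain ventricles that secretes cerebrospinal fluid. miR-204 and miR-211 are paralogs that lie in introns of the cation channel genes Trpm3 and Trpm1, and miR-204 is abundant in choroid plexus and retinal pigment epithelium. Htr2c encodes the serotonin 2C receptor, which is expressed in choroid plexus epithelium and in neurons, and its introns hold a group of miRNA hairpins. A hairpin is cut into 2 mature arms, named 5p and 3p, and an arm recognises targets mainly through its seed, bases 2 to 8. The table holds small RNAs only, so the messenger RNAs that define choroid plexus were not part of it, and the link of these miRNAs to that tissue is background knowledge here.

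The mature sequences are given first because they show which of the miRNAs share a seed and how nearly alike miR-204-5p and miR-211-5p are. They are written 5′ to 3′ from RefSeq (GRCm38.p6), with the seed in capitals, and all 5 members were found there.
mmu-miR-204-5p, chr19:22750610-22750631, plus strand: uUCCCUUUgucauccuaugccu
mmu-miR-211-5p, chr7:64205831-64205852, plus strand: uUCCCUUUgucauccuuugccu
mmu-miR-448-3p, chrX:147158281-147158302, plus strand: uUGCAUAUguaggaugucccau
mmu-miR-1298-5p, chrX:147064918-147064939, plus strand: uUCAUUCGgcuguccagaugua
mmu-miR-1264-3p, chrX:147010655-147010676, plus strand: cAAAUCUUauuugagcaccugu
mmu-miR-1912-3p, also from Htr2c and used below for comparison, chrX:147009493-147009514, plus strand: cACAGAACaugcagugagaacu

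miR-204-5p and miR-211-5p share their seed and 21 of 22 bases, and the single difference is A17U, counted from the 5′ end with the base of miR-204-5p first. Reads of this pair could therefore be divided between both rows by the counting. Whether they were was not tested, and the low values of miR-211-5p are uncertain in that respect. Of the 1679 mature mouse miRNAs in the RefSeq table, 1 other, miR-7670-3p, has this seed, and its mean was 0.32 normalized counts. The seeds of miR-448-3p, miR-1298-5p and miR-1264-3p were each found in no other mature miRNA of that table.

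The hairpins lie in introns of their host genes and on the host's strand in GRCm38 (GENCODE M21). Mir204 lies in intron 6 of Trpm3 (transcript Trpm3-201, chromosome 19) and Mir211 in intron 6 of Trpm1 (Trpm1-201, chromosome 7). Htr2c (chrX:146962513-147197277) spans 235 kb, and its transcript Htr2c-201 holds Mir764, Mir1912, Mir1264 and Mir1298 in intron 2 and Mir448 in intron 4. Mir1912 and Mir1264 are 1.07 kb apart, while Mir1298 follows 54.2 kb after Mir1264 and Mir448 a further 93.2 kb on. None of these hairpins overlaps an exon of a coding transcript of its host.

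Levels were compared as normalized counts, which are reads divided by 1 size factor per library. Each library held between 13.2 M and 23.1 M recovered reads, with means of 16.9 M and 18.3 M in PS19 and WT (p = 0.367, exact permutation test). miRNA rows held 15% to 32.6% of the signal of a library. The first letter of the library code, whose meaning is not stated, was G in all 8 PS19 libraries and in 2 of WT, and the WT remainder had F (4 libraries) or A (2 libraries), so letter and genotype overlap in the 2 WT libraries with G only. In bulk tissue, a smaller number of cells of a type and less RNA per cell cannot be told apart.

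miR-1298-5p and miR-204-5p were the abundant members, and the other 3 were low. Means over the 16 libraries were 2434 normalized counts for miR-1298-5p, 1745 for miR-204-5p, 43.7 for miR-448-3p, 16.1 for miR-1264-3p and 6.94 for miR-211-5p. These means ranked 90th, 99th, 319th, 399th and 481st among the 521 mature miRNAs tested. The top pair had no fixed order, since miR-204-5p exceeded miR-1298-5p in 9 of 16 libraries, and miR-211-5p and miR-1264-3p likewise changed places, with miR-211-5p higher in 6 of 16. miR-448-3p was above miR-1264-3p in 14 of 16 libraries and below miR-204-5p and miR-1298-5p in all 16.

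The normalized count of miR-204-5p, the Trpm3 intron miRNA, was 773 at the lowest, 1403 at the median and 6592 at the highest in PS19. In WT it was 543, 1245 and 4144, respectively. The genotypes overlapped over most of this range, and the highest library of each group, PS19 replicate 3 and WT replicate 3, stood well above the next, at 1842 and 1814. The means were 1961 ± 1901 (SD, n = 8) and 1529 ± 1146 (SD, n = 8). On the log2(normalized count + 1) scale the difference, PS19 minus WT, was 0.29 ± 0.40 (SE; 95% interval -0.54 to 1.12; limma, unadjusted p = 0.477, adjusted p = 0.9998; two-sided exact permutation test, p = 0.544). The direction rested on 1 library, since the difference was -0.01 without PS19 replicate 3, and it was 0.53 without WT replicate 3.

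miR-211-5p, the Trpm1 intron paralog, was measured by 1 to 36 reads per library. Its normalized count ranged from 2.85 through a median of 5.8 to 11.3 in PS19, and from 1.28 through 6.23 to 32.1 in WT. The WT range enclosed that of PS19, and the value of 32.1 came from WT replicate 5, whereas the next WT library was at 8.4. The means were 5.67 ± 2.86 (SD, n = 8) and 8.21 ± 10.1 (SD, n = 8), and the log2 difference was -0.02 ± 0.46 (SE; 95% interval -0.98 to 0.95; limma, unadjusted p = 0.974, adjusted p = 0.9998; exact permutation test, p = 0.973). Without WT replicate 5 the difference was 0.33. WT replicate 5 was also the library with the highest value of all 6 tested members of the list of miR-200 and miR-182/183 family miRNAs used as a check for olfactory tissue, with 989 normalized counts of miR-200a-3p against a WT median of 51.7. WT replicate 1, with the lowest miR-211-5p of all 16 libraries (1.28), had the second highest miR-183-5p (3477) and miR-182-5p (4572). Over the 16 libraries the r of miR-211-5p with the 6 rows was 0.29 to 0.45, given as a description, and the part of that tissue in the miR-211-5p values was not tested. miR-204-5p exceeded miR-211-5p by a median ratio of 309, from 22.5 to 1416 across libraries.

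miR-1298-5p, from Htr2c intron 2, varied the most of the abundant pair. Its normalized count was 143 at the lowest, 1226 at the median and 12296 at the highest in PS19. In WT it ran from 262 through 726 to 8530. The lowest and the highest library of all 16 were both PS19, replicates 2 and 3, so the PS19 range enclosed that of WT. The means were 2868 ± 3999 (SD, n = 8) and 2000 ± 2807 (SD, n = 8), and the log2 difference was 0.50 ± 0.78 (SE; 95% interval -1.11 to 2.12; limma, unadjusted p = 0.526, adjusted p = 0.9998; exact permutation test, p = 0.605). Taken as folds, this interval runs from 0.462 to 4.34. The difference was 0.05 without PS19 replicate 3 and 0.97 without PS19 replicate 2.

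miR-448-3p, from intron 4 of the same gene, ranked the libraries almost as miR-1298-5p did. It ranged from 2.17 through a median of 26.7 to 179 normalized counts in PS19. In WT the range was 4.95, 11.8 and 173. Replicate 3 was again the highest of both groups, PS19 replicate 2 was the lowest of all 16, and the groups overlapped. The log2 difference was 0.32 ± 0.72 (SE; 95% interval -1.18 to 1.82; limma, unadjusted p = 0.662, adjusted p = 0.9998; exact permutation test, p = 0.716). It was -0.08 without PS19 replicate 3 and -0.12 among the libraries with code letter G.

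miR-1264-3p, from Htr2c intron 2, had 0 reads in PS19 replicate 6, which allows up to 2.85 normalized counts (3 reads, counting error only). Its median and highest normalized counts were 10.1 and 40.8 in PS19. In WT it ranged from 1 through 13.3 to 55.6. PS19 replicate 1 and WT replicate 3 were the highest of their groups, and the groups overlapped. The log2 difference was -0.36 ± 0.75 (SE; 95% interval -1.92 to 1.21; limma, unadjusted p = 0.642, adjusted p = 0.9998; exact permutation test, p = 0.693), and without PS19 replicate 6 it was 0.09.

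**Figure D1:**
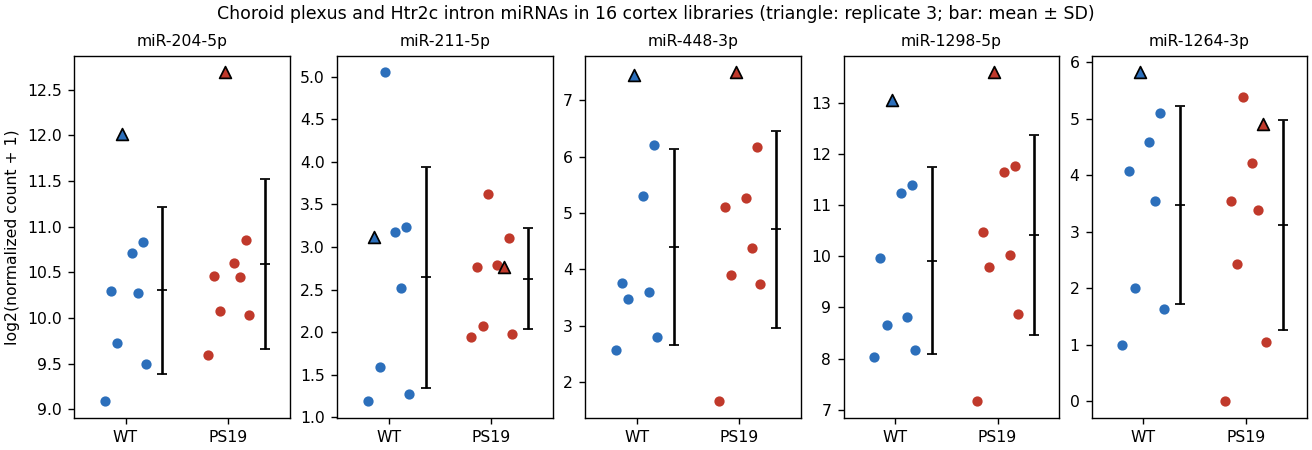
Normalized counts of the 5 miRNAs on a log2(normalized count + 1) axis, with 1 point per library, triangles for replicate 3 of each genotype and bars for the mean ± SD of 8 libraries. The genotypes overlap for every miRNA, and the triangles are the highest points of both groups for miR-204-5p, miR-448-3p and miR-1298-5p.

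No difference between the genotypes passed the test for any of the 5 miRNAs. At an unadjusted p-value under 0.05, 0 of the 5 were called, where 241 of the 6024 features tested were, which is 4%, and 2.88% of the 521 mature miRNAs. At an adjusted p-value under 0.05 no feature of the table was called by limma (0 of 6024, 0%), while DESeq2 on the recovered reads called 15 and none of them was a member. The log2 difference was above 0 for 3 members and below 0 for 2, with a median of 0.29 beside -0.02 over all features tested and -0.13 over mature miRNAs. The intervals were wide, from 0.264-fold at the low end for miR-1264-3p to 4.34-fold at the high end for miR-1298-5p. Among the 10 libraries with code letter G, 8 PS19 and 2 WT, the differences were 0.09 for miR-204-5p, -0.22 for miR-211-5p, 0.64 for miR-1298-5p and -0.44 for miR-1264-3p, beside the value for miR-448-3p given above.

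**Figure D2:**
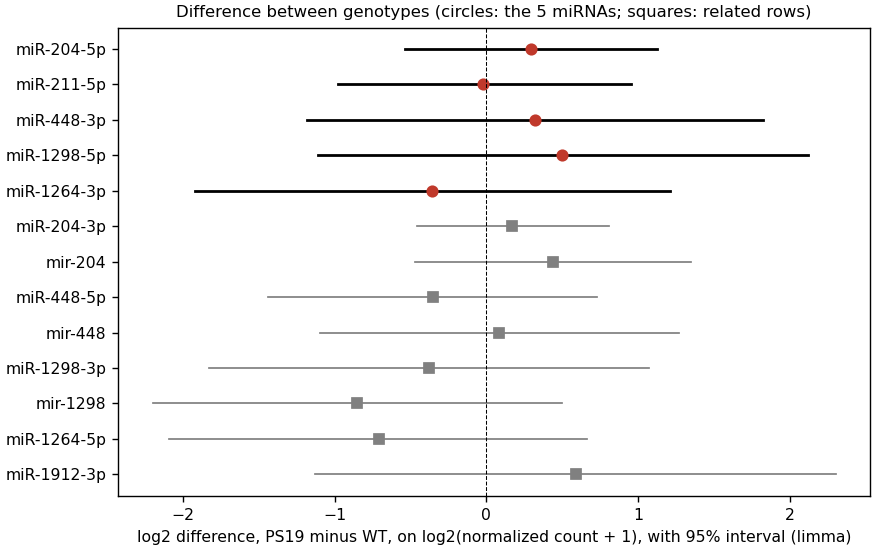
Log2 difference between PS19 and WT (limma, points) with 95% intervals (lines) for the 5 miRNAs (circles) and the tested rows of the same hairpins and of miR-1912-3p (squares). All 13 intervals include 0.

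The Htr2c miRNAs were among the miRNAs with the widest spread within a genotype. The ratio of the highest to the lowest of the 16 libraries was 86.1 for miR-1298-5p, 82.9 for miR-448-3p, 25 for miR-211-5p and 12.1 for miR-204-5p. For miR-1264-3p, which had 0 reads in 1 PS19 library, it was 55.6 within WT. The SD within genotype on the log2 scale was 1.89 for miR-1298-5p, 1.81 for miR-1264-3p and 1.74 for miR-448-3p, compared with a median of 0.71 over the 521 mature miRNAs. These SDs ranked 5th, 9th and 11th of 521. miR-211-5p (1.01) ranked 60th and miR-204-5p (0.92) 94th. A wide spread was not particular to Htr2c, since all 6 tested miRNAs of the olfactory list ranked between 2nd (miR-429-3p) and 20th (miR-96-5p).

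The spread was then compared among abundant miRNAs, where counting error is small. Among the 149 mature miRNAs with a mean of at least 500 normalized counts, whose median SD was 0.68, miR-1298-5p ranked 2nd and miR-204-5p 18th, with miR-187-3p 1st, miR-182-5p 3rd and miR-183-5p 4th. Without the limit on abundance, 7 mature rows from Htr2c introns were ranked among all 521 miRNAs. Of these 7, 6 were among the 20 miRNAs with the highest SD, including both arms of mir-1264 and of mir-1298. Counting error is not small for the low rows, such as miR-1264-5p (0 to 41 reads) and miR-1912-3p (0 to 52 reads). Both replicate 3 libraries, which held the highest values of 3 members, were then left out, a choice made after seeing the data. miR-1298-5p was then 15th of 521 with an SD of 1.51 and 4th of the 149 abundant miRNAs. Of the 7 Htr2c rows, 6 were still among the highest 20 of the 521. By contrast, miR-204-5p dropped to an SD of 0.54 and to 432nd of 521, so its spread rested on those 2 libraries. With scaling to the miRNA total of each library, miR-1298-5p was 9th and miR-204-5p 132nd.

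**Figure D3:**
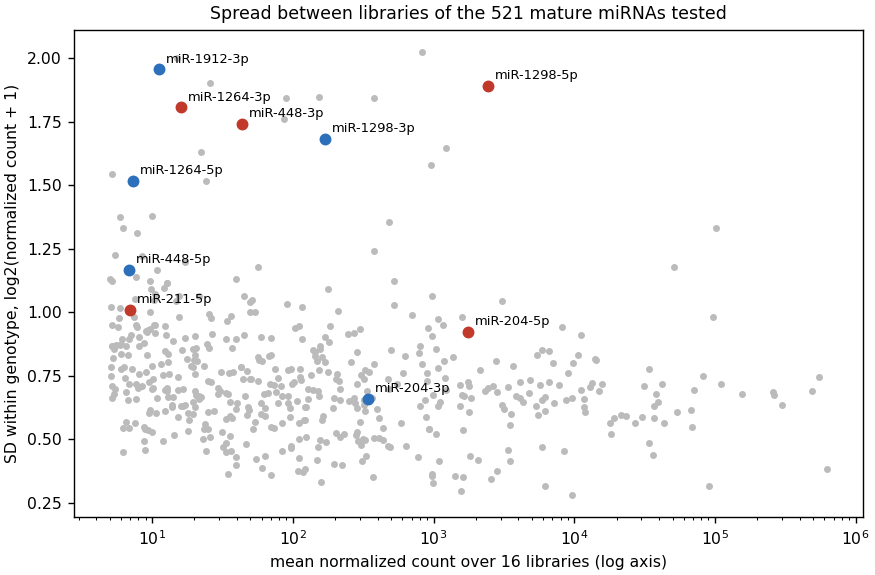
SD within genotype on the log2(normalized count + 1) scale against the mean normalized count (log axis) for the 521 mature miRNAs tested, with the 5 miRNAs in red and other rows from their hairpins and Htr2c in blue. miR-1298-5p lies at an SD of 1.89 and a mean of 2434, above nearly all miRNAs of like abundance, whereas miR-204-5p lies at 0.92.

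The Htr2c members miR-448-3p and miR-1298-5p, and miR-204-5p with them, varied together from mouse to mouse, and miR-1264-3p followed less closely. The permutation p-values compare r with 0, not with its level among miRNAs in general, which is given further below. Over the 16 libraries, miR-448-3p and miR-1298-5p had a Pearson r of 0.96 (p = 1e-05, the smallest that 100000 permutations can give, adjusted p = 5e-05 over 10 pairs) and a Spearman rho of 0.94 (permutation p = 1e-05). Their ratio, miR-448-3p over miR-1298-5p, stayed between 0.0104 and 0.0353 while each miRNA varied 82.9-fold or more. Without PS19 replicate 3 and WT replicate 3, the libraries farthest from the median, r was 0.93, and it was 0.97 within PS19, 0.95 within WT and 0.96 among the libraries with code letter G. Only 4 and 2 libraries carried the letters F and A, too few for a value of their own.

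miR-1264-3p followed the same course less closely. With miR-1298-5p it had r = 0.78 (permutation p = 0.00046, adjusted p = 0.00115) and rho = 0.77 (permutation p = 0.00075), and with miR-448-3p r = 0.75 (permutation p = 0.00106, adjusted p = 0.00212) and rho = 0.74 (permutation p = 0.00153). Without the 2 farthest libraries these values of r were 0.72 and 0.67. They were 0.89 and 0.90 within WT and 0.72 and 0.64 within PS19, where neither passed the adjusted threshold (adjusted p = 0.109 and 0.178, permutation tests).

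miR-204-5p lies on another chromosome and followed the Htr2c miRNAs too. Its r was 0.87 with miR-1298-5p (permutation p = 2e-05, adjusted p = 6.7e-05) and 0.85 with miR-448-3p (permutation p = 1e-05, adjusted p = 5e-05), with rho of 0.89 (permutation p = 3e-05) and 0.85 (permutation p = 4e-05). Leaving out both replicate 3 libraries gave 0.76 and 0.72. Within WT r was 0.91 for both pairs, and within PS19 it was 0.82 and 0.78 (adjusted p = 0.0564 and 0.0946, permutation tests). With miR-1264-3p the r of miR-204-5p was 0.64 (permutation p = 0.00547, adjusted p = 0.00912) and rho 0.68 (permutation p = 0.00507), but this pair lost the adjusted threshold without both replicate 3 libraries (r = 0.57, adjusted p = 0.0586, permutation test) and with scaling to the miRNA total (r = 0.37, adjusted p = 0.253, permutation test).

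No relation of miR-211-5p to its paralog or to the Htr2c miRNAs passed the test. Its r was 0.12 with miR-204-5p, 0.14 with miR-448-3p, 0.05 with miR-1298-5p and 0.26 with miR-1264-3p, with permutation p-values from 0.342 to 0.862 and adjusted p-values from 0.489 to 0.862. Its rho with the 4 others ranged from 0.09 to 0.23 (permutation p from 0.396 to 0.754). Without WT replicates 1 and 5, the libraries farthest from the median of miR-211-5p, its r with the 3 Htr2c miRNAs was 0.37 to 0.47 (adjusted p from 0.136 to 0.206, permutation tests). Without both replicate 3 libraries these values were -0.04 to 0.22, and r with miR-204-5p was 0.05. At 1 to 36 reads per library, a relation of moderate size may not have been detectable for this miRNA.

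**Figure D4:**
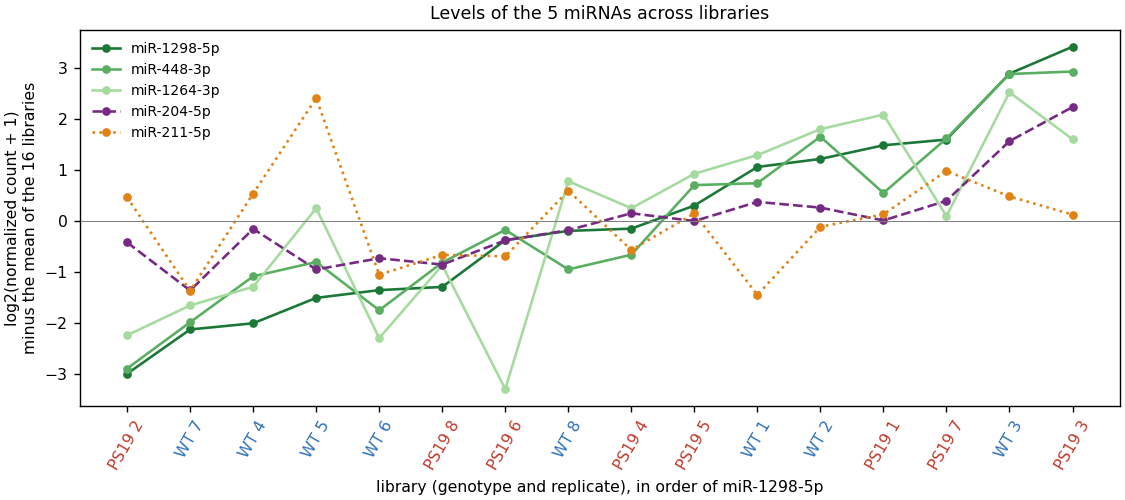
Log2(normalized count + 1) of the 5 miRNAs in each library, minus the mean of the 16 libraries, with libraries in the order of miR-1298-5p and their names in red for PS19 and blue for WT. The lines of miR-1298-5p and miR-448-3p run together (r = 0.96), miR-204-5p follows with a smaller amplitude, and miR-211-5p peaks in WT replicate 5.

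For comparison, the miRNAs most like each member were listed, leaving out its own hairpin and giving no test. For miR-1298-5p these were miR-448-3p (r = 0.96), miR-1912-3p (0.90) and miR-204-5p (0.87) of 519 miRNAs compared, and for miR-448-3p they were miR-1298-5p (0.96), miR-1912-3p (0.88) and miR-204-5p (0.85). The nearest to miR-204-5p were miR-1298-5p (0.87), miR-1912-3p (0.86) and miR-148b-5p (0.85). miR-1298-5p and miR-1912-3p, another miRNA of Htr2c intron 2, thus stood in the lists of both miR-204-5p and miR-448-3p. miR-1264-3p was most like miR-1298-3p (0.94), miR-770-5p (0.85) and miR-874-3p (0.84), and miR-211-5p was most like miR-3066-5p (0.74), miR-322-3p (0.63) and miR-30b-5p (0.60).

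The level of r has to be read against that of miRNAs in general, which share the library and its composition. The median r of miR-1298-5p with the 520 other mature miRNAs was 0.42, and 11 of them reached 0.75. For miR-448-3p the median was 0.38 with 6 at 0.75 or above, and for miR-204-5p 0.48 with 13. miR-1264-3p had a median of 0.54 with 38 at 0.75 or above, and miR-211-5p a median of 0.18 with none (0). The 95th percentile was 0.68 for miR-1298-5p, 0.65 for miR-448-3p, 0.70 for miR-204-5p and 0.77 for miR-1264-3p. The r of miR-1264-3p lay under its own percentile with miR-448-3p (0.75) and miR-204-5p (0.64), and barely above it with miR-1298-5p (0.78). Against the partner's percentile it was higher with miR-448-3p and miR-1298-5p and lower with miR-204-5p. Pairs among these partners lay above both percentiles.

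The other arms and precursor rows of the same hairpins were then examined. Of 10 such rows, 7 passed the filter, 3 with a log2 difference above 0 and 4 below, and 0 were called at an unadjusted p-value under 0.05 (limma, p from 0.206 to 0.886, beside the 4% of all features). In PS19 and WT, miR-204-3p averaged 349 ± 129.8 and 330.5 ± 208 normalized counts (SD, n = 8). miR-1298-3p averaged 130.0 ± 116 and 210.4 ± 205 (SD, n = 8). The lowest p-value, 0.206, was that of the precursor row mmu-mir-1298, with a log2 difference of -0.85 ± 0.65 (SE). Among the 6 rows of the other Htr2c hairpins, miR-764 and miR-1912, only miR-1912-3p passed the filter (mean 15.2 ± 19.8 in PS19 and 7.03 ± 11.4 in WT, SD, n = 8), and its log2 difference of 0.59 ± 0.82 (SE) did not pass the test (exact permutation test, p = 0.552; limma adjusted p = 0.9998).

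The share of reads on each arm does not depend on the size factor. Only mir-204 and mir-1298 had at least 50 recovered reads on both arms together in every library. In PS19 the 5p arm of mir-204 took 81.5% ± 7.04 (SD, n = 8) of the reads, and in WT 81% ± 4.23 (SD, n = 8), a difference that did not pass an exact permutation test (p = 0.883, adjusted p = 0.883 over 2 hairpins). Single libraries lay between 71.7% and 92.7%. For mir-1298 the means were 92.2% ± 5.05 (SD, n = 8) and 88.5% ± 5.06 (SD, n = 8), respectively, which did not pass the same test either (exact permutation p = 0.162, adjusted p = 0.324). The genotypes overlapped here too, with 85.9% to 98.5% in PS19 and 82.3% to 94.6% in WT. The 5p arm led in all 16 libraries for both hairpins.

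The ratio of the arms of mir-1298 was not constant between mice. It ranged from 4.64 reads of miR-1298-5p per read of miR-1298-3p in WT replicate 4 to 65.9 in PS19 replicate 3. Across libraries, miR-1298-3p had a higher r with miR-1264-3p (0.94) than with the other arm of its own hairpin (0.78), given as a description over 16 libraries with no test of the difference. For miR-204 the arms had r = 0.76, and the precursor row mmu-mir-204 had r = 0.94 with miR-204-5p.

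**Figure D5:**
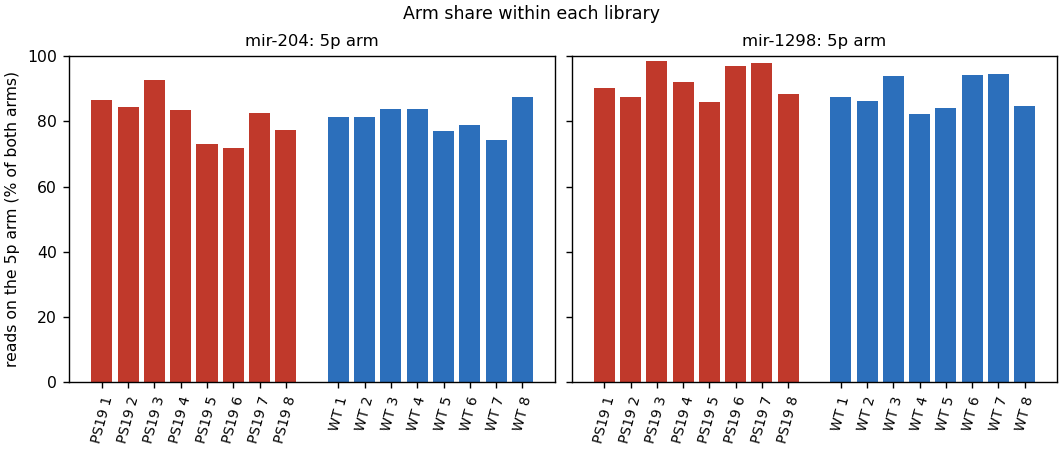
Reads on the 5p arm as a percentage of the reads on both arms of mir-204 (left) and mir-1298 (right) in each library, with PS19 in red and WT in blue. The shares overlap between genotypes, and PS19 replicate 3 has the highest share for both hairpins, 92.7% and 98.5%.

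Marker miRNAs of other cell types were measured beside these results. Ciliated epithelium and ependyma, which line the ventricles next to the choroid plexus, were represented by 7 miRNAs of the miR-34b/c and miR-449 families. Of these, 4 passed the filter, all with a log2 difference above 0, and 0 were called (limma, p from 0.16 to 0.326, beside 4% of all features). These 4 are both arms of miR-34b and of miR-34c, so their directions are not independent. The summed level of the 7 miRNAs ranged from 171 to 2332 normalized counts in PS19 and from 270.1 to 1110.3 in WT. miR-34c-5p, the most abundant, had r = 0.79 with miR-1298-5p and 0.75 with miR-204-5p over the 16 libraries, given as a description. miR-449a-5p, miR-449b and miR-449c-5p, which are most particular to ciliated cells, averaged 3.75, 0.368 and 0.0744 normalized counts. The part of ventricle lining in the spread of the members was not tested.

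The remaining marker lists gave 0 calls in the same fit, beside 4% of all features. The neuronal miR-124-3p averaged 11604 normalized counts in PS19 and 11824 in WT (exact permutation test, p = 0.777) and had r = 0.44 with miR-1298-5p and 0.59 with miR-204-5p. The oligodendrocyte markers miR-219a-2-3p and miR-338-3p had log2 differences of 0.40 and 0.19 (exact permutation tests, p = 0.19 and 0.58) and r of 0.52 and 0.61 with miR-1298-5p and 0.58 and 0.68 with miR-204-5p. The endothelial miR-126a-3p had a log2 difference of -0.07 (exact permutation test, p = 0.866) and the red cell miR-451a one of 0.52 (exact permutation test, p = 0.305), with r of 0.30 and -0.17 with miR-1298-5p and 0.56 and 0.07 with miR-204-5p. The red cell miR-144-3p and the leukocyte markers miR-142a-3p and miR-223-3p fell under the filter, with means of 0.343, 2.39 and 3.67. Of these, miR-142a-3p averaged 3.75 ± 3.63 in PS19 and 1.02 ± 1.41 in WT (SD, n = 8), with 6 libraries at 0, and was the only 1 of 22 markers with an exact permutation p under 0.05 (p = 0.0476, not adjusted for the 22 tests). Of the 7 miRNAs of the olfactory list 6 passed the filter, all with a log2 difference below 0 and none called (limma, p from 0.152 to 0.558). The medians of miR-200a-3p (64.4 in PS19, 51.7 in WT), miR-200b-3p (199 and 124) and miR-429-3p (8.54 and 4.65) went the other way. Those of miR-183-5p, miR-96-5p and miR-182-5p were lower in PS19. The summed level of the 7 ran from 473 to 2292 normalized counts in PS19 and from 233 to 13967 in WT. Of this list, miR-182-5p and miR-183-5p had the highest r with a member, 0.70 and 0.67 with miR-1264-3p.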

How the data were processed

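Small RNA was isolated from frozen prefrontal cortex with the Norgen MicroRNA kit and made into libraries with the NEBNext small RNA kit, and single-end reads were sequenced. The authors aligned reads to mm10 with STAR 2.5.3a inside the small RNA pipeline COMPSRA, and compared genotypes with DESeq2 1.42.1 (STAR, DESeq2 and build per the submitters' processing notes). The deposited values are a normalized signal, which the authors made by dividing the read counts of each library by 1 size factor. Every value was a whole multiple (within 0.001) of the value of 1 read in its library, so reads were recovered by division, on weaker evidence in WT replicates 4 and 6, where 1 read was worth nearly 1. Columns with the authors' mean, log2 fold change, standard error, statistic and p-values were not used.

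Values were transformed as log2(value + 1), which understates changes of low features. Features with a mean of at least 5 were tested (6024) by limma 3.58.1 (lmFit, eBayes with trend) in R 4.3.3 with genotype as the only term, and p-values were adjusted by Benjamini-Hochberg over all of them. Single values were compared by two-sided exact permutation over 12870 assignments of libraries, and correlations by 100000 permutations, in Python 3.11.15 with numpy 2.4.6. The tests were run on simulated data first. Alternatives were DESeq2 1.42.0 and edgeR 4.0.16 on recovered reads, other scalings, filters and pseudocounts, array weights, a replicate block, the code letter as a term, and each library left out. Marker miRNAs and the rows named, which are the members, their other arms and precursors, the other Htr2c miRNAs and the 3 most similar miRNAs of each member, followed fixed lists, and the members and lists were chosen with earlier results of these data known. The labels give each library a title of its own but not its animal. Per the methods each group held 8 mice, and p-values measure the spread between these libraries. The floor given for a count of 0 covers counting error only.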

Additional observations from a re-analysis of the deposited data

Results flagged for a closer look

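Each of the 13 miRNA rows that passed the filter and the 2 arm shares was examined in each genotype for a library far from the other 7, by whether its gap to the nearest library exceeded 0.526 of the range of the group (Dixon's limit for 8 values). On normalized counts this set apart 13 of 30 group values, 7 in WT replicate 3 and 4 in PS19 replicate 3. The limit assumes values without skew, under which chance would give about 1.5, and these counts are skewed. On the log2(normalized count + 1) scale used for the tests, 2 of the 13 passed the limit, miR-204-5p and mmu-mir-204 in PS19 replicate 3, and 0 did in WT replicate 3. The rows share libraries and are correlated, so these values are not independent.

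In PS19 replicate 3, miR-204-5p was at 6592 normalized counts with the next PS19 library at 1842. In the same library miR-1298-5p was at 12296 (next 3478), miR-448-3p at 179 (next 71.4) and the precursor row mmu-mir-204 at 70.9 (next 20.4).

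In WT replicate 3, miR-204-5p was at 4144 (next WT library 1814), miR-1298-5p at 8530 (next 2673) and miR-448-3p at 173 (next 73.2). miR-204-3p was at 796 (next 419) and mmu-mir-204 at 56.5 (next 24.3). miR-1264-5p was at 35.1 (next 16.2) and miR-1912-3p at 34.2 (next 9.51).

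In WT replicate 5, miR-211-5p was at 32.1, with the next WT library at 8.4. In PS19 replicate 1, the precursor row mmu-mir-1298 was at 17.5, with the next PS19 library at 5.9.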

How the results depend on the processing

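No member reached an unadjusted or adjusted p-value under 0.05 under any alternative run: over the 30 fits the lowest unadjusted p was 0.162 (miR-204-5p without WT replicate 3), the lowest adjusted p 0.83, and the lowest exact permutation p over 22 settings 0.24. Directions did change. The log2 difference of miR-204-5p was -0.01 without PS19 replicate 3. The log2 difference of miR-448-3p was -0.12 with the code letter as a term, -0.12 with letter G alone and -0.08 without PS19 replicate 3. That of miR-211-5p was 0.02 with a pseudocount of 0.5, 0.05 with miRNA scaling and 0.03 without both replicate 3 libraries (chosen after seeing the data). Leaving out 1 library gave -0.22 to 0.33 for miR-211-5p, turning it above 0 in 7 of 16 cases (0.06 without PS19 replicate 4 or WT replicate 4, 0.08 without PS19 replicate 6 or 8, 0.05 without WT replicate 3, 0.07 without WT replicate 8, and 0.33 without WT replicate 5), and gave -0.01 to 0.53 for miR-204-5p, -0.08 to 0.76 for miR-448-3p, 0.05 to 0.97 for miR-1298-5p and -0.71 to 0.09 for miR-1264-3p. Over the other settings, the lowest and highest differences were -0.51 (DESeq2; edgeR -0.47) and 0.05 for miR-211-5p, -0.74 (array weights) and -0.21 for miR-1264-3p, 0.25 (array weights) and 0.64 for miR-1298-5p, 0.09 and 0.40 for miR-204-5p, and -0.12 and 0.39 for miR-448-3p. The difference in 5p share ranged from -1.17 to 1.83 percentage points for mir-204 (0.441 with all libraries; -0.29, -1.17, -0.151 and -0.502 without PS19 replicates 1 and 3 and WT replicates 5 and 7) and from 2.81 to 4.61 for mir-1298 (3.71 with all). The 241 of 6024 features at an unadjusted p-value under 0.05 became 52 of 748 with miRNA features and scaling alone, 680 of 17088 without a filter and 136 of 2510 with a mean of at least 20. Of the same 6024 features there were 418 with array weights, 419 with the replicate block, 124 with the letter as a term, 121 with letter G alone and 171 to 321 with 1 library left out. At an adjusted p-value under 0.05, DESeq2 called 15 features and every other fit 0. The shared replicate numbers were not taken as pairs, because the labels give them no meaning. The r of same-numbered libraries in their deviations was over 0.1 in 5 of 8 pairs. As a hint of shared structure, all 8 values of r were above 0 (0.045 to 0.456), and the own number ranked 1st in 2 libraries and 2nd or 3rd in the other 6. PS19 replicate 3 and WT replicate 3, the highest libraries for several members, also share a number. What same-numbered libraries share was not tested, and all tests but the replicate block treat the 16 libraries as independent. The replicate block changed no call of a member. Of the 10 pairs of members, 6 had an adjusted p-value under 0.05 for r, and 1 did within PS19, 5 without both replicate 3 libraries and 4 with letter G alone (the last, like the SD ranks with miRNA scaling, was chosen after seeing the data). The r of miR-204-5p and miR-1264-3p was 0.53 with library scaling, 0.37 with miRNA scaling, 0.57 without both replicate 3 libraries, 0.56 within PS19 and 0.55 with letter G alone, none past the threshold. With letter G alone the r of miR-448-3p and miR-1264-3p was 0.69 (adjusted p = 0.0516, permutation test). The r of miR-211-5p with miR-1298-5p was 0.00 with library scaling, -0.10 with miRNA scaling, -0.05 within WT and -0.04 without both replicate 3 libraries, and that with miR-204-5p was -0.01 with miRNA scaling. The causes were not tested. Counts of 1 to 36 reads limit miR-211-5p and of 0 to 65 reads miR-1264-3p.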

Other observations

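Rows annotated as circRNAs followed the hairpins of both abundant members, and were named here after their values were seen. mmu_circ_0016145 averaged 2682 normalized counts beside 2613 for the sum of the 3 mir-1298 rows (both arms and the precursor), and the ratio lay between 1.01 and 1.09 in all 16 libraries. Its Pearson r with miR-1298-5p was 0.999 over these libraries. mmu_circ_0007629 averaged 2345 beside 2104 for the sum of the 3 mir-204 rows, with a ratio of 1.03 to 1.54 and an r of 0.986 with miR-204-5p. In each case the circRNA row was at least as high as the hairpin rows in 16 of 16 libraries. The log2 differences of these rows between PS19 and WT were 0.42 and 0.15, and neither passed the test. The deposited values do not show which reads a row holds, and whether these rows and the hairpin rows share reads was not tested.

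The highest r of miR-448-3p with any of the 6023 other rows that passed the filter was with mmu_circ_0016145 (0.96). That row followed the mir-1298 rows, as given above, and the r of miR-448-3p with miR-1298-5p was also 0.96. For miR-1264-3p the highest r with a tested row of another class was 0.89, with a tRNA-Arg-TCT row averaging 49.9 normalized counts. No row of the table had values identical to those of a member.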
